A study of Mus with 6 samples.

Results

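The genes described here were the small nucleolar RNAs (snoRNAs) and small Cajal body RNAs of the mouse hippocampus. They were chosen by the array's annotation, which had to give a row exactly 1 gene symbol, and that symbol had to start with Snora (box H/ACA snoRNAs), Snord (box C/D snoRNAs) or Scarna (Cajal body RNAs). Host genes of the Snhg series were left out. A symbol with more than 1 row was represented by the row selected on its mean level over the 6 arrays, the highest being kept. The rule found 60 rows for 54 genes, of 19938 genes with a single symbol, and these were 20 H/ACA snoRNAs, 31 C/D snoRNAs and 3 Cajal body RNAs. For 6 of the 54 symbols there were 2 rows, which held identical values for Scarna17, Snora30 and Snord118 and gave log2 fold changes of the same sign for Snora21, Snora3 and Snord58b.

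The study asked how repeated forced swim stress (FSS), used to produce a depression-like state, altered hippocampal gene expression. Male C57BL/6JJmsSlc mice, an inbred strain, of 10 to 11 weeks by the labels, were compared in 2 groups of 3, with 1 Affymetrix Mouse Gene 1.0 ST array per mouse. The 3 FSS mice swam for 11 min per day on 5 days in water at 25 °C and 25 cm deep, with no way out, the 3 control mice did not swim, and the hippocampus was taken on Day 8. By the paper's schedule, a tail suspension test came between the last swim and that day, and mice without the swim were tested as well. No transgene, deletion or drug was part of either group. The deposited values were log2 levels after RMA, the usual background correction, normalisation and summary of this array type, so a log2 fold change below is the mean of the FSS mice minus the mean of the control mice.

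SnoRNAs are short nuclear RNAs that pair with ribosomal RNA and bring a modifying enzyme to a chosen base. Box C/D RNAs carry fibrillarin, which methylates the ribose, and box H/ACA RNAs carry dyskerin, which turns uridine into pseudouridine, while Cajal body RNAs direct the same reactions on the small nuclear RNAs of the spliceosome. In mammals most of them are cut out of the introns of other genes, many of which encode ribosomal proteins, so that 1 transcript gives both a messenger RNA and a snoRNA. Brain neurons transcribe some C/D RNAs of imprinted clusters at high levels. The RNA here was purified over a silica column that favours longer RNA, and the array's probes do not tell a mature snoRNA from the same letters within an unspliced host transcript.

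The 6 arrays had medians of 7.32 to 7.35 over all rows, and 23 of 24 hippocampal cell type markers were measured, the lowest at a mean log2 level of 7.01. Of those 23 markers, 5 were higher in the FSS mice at unadjusted p under 0.05 in limma, and 0 were lower. The 5 were Prox1 of dentate granule cells, Aqp4 and Gfap of astrocytes, Cx3cr1 of microglia and Ttr of the choroid plexus. Among all genes 2.50% passed as higher and 2.69% as lower. The other listed markers of these cell types did not pass. They were Dsp (log2 fold change 0.13) and C1ql2 (0.090) of dentate granule cells and Slc1a3 of astrocytes (0.027). For microglia they were P2ry12 (0.15) and Tmem119 (0.039). For the choroid plexus they were Kl (0.036), Folr1 (-0.043) and Kcnj13 (-0.12, with a 95% interval from -0.74 to 0.49). Whether Ttr stands for that tissue was not tested. The mean log2 level of the 9 neuronal markers was 10.61 to 10.70 in the control mice and 10.71 to 10.72 in the FSS mice. That of the 14 other markers was 9.02 to 9.18 and 9.20 to 9.27. The 14 include Ttr, with a log2 fold change of 0.95 and levels from 7.56 in control mouse 3 to 9.74 in FSS mouse 1. A mean without Ttr was not taken, so these values are no result about the other markers as a group. The part of the markers in the values below was not tested. In whole tissue, fewer cells of a type and less RNA per cell cannot be told apart.

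Of the 54 genes, 4 were higher and 5 were lower in the FSS mice at unadjusted p under 0.05 (limma), which is 16.7% of them, where 5.20% of all genes passed in either direction, 2.50% as higher and 2.69% as lower. None passed after Benjamini-Hochberg adjustment in limma, the smallest adjusted p being 0.872, and 0 of all rows did, so every "higher", "lower", "rose" or "fell" below refers to the unadjusted p. The groups did not overlap for 8 of the 54 genes, against 10.2% of all genes. With a log2 fold change over 0.5 in size required as well, 1 gene was called, Scarna13, where 0.0752% of all genes were. The median log2 fold change of the 54 genes was 0.0059, beside 0.0039 over all genes. The genes that passed lay on both sides of it. Changes over 0.2 in size were seen in 7 of 54 genes (13.0%) and in 853 of 19938 genes (4.28%). The median SD within a group was larger as well, 0.107 beside 0.078 over all genes. At or above 7.68, the median log2 level of the rows with 1 symbol, lay 24 of the 54 genes. Levels of different rows depend on their probes and are not amounts of RNA.

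The counts of the 3 classes are given apart, and each rested on few genes. Of 20 H/ACA snoRNAs, 3 rose, 3 fell and 14 did not pass, with a median log2 fold change of -0.0074 and a range from -0.28 to 0.29. Among 31 C/D snoRNAs, 1 rose, 1 fell and 29 did not pass, with a median of 0.038 and a range from -0.44 to 0.24. Of the 3 Cajal body RNAs, 1 fell and the other 2 did not pass. The share that passed was 30% for the H/ACA and 6.45% for the C/D snoRNAs, where 5.20% of all genes passed. The C/D share is near that of all genes, and the difference between the classes was not tested.

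**Figure D1:**
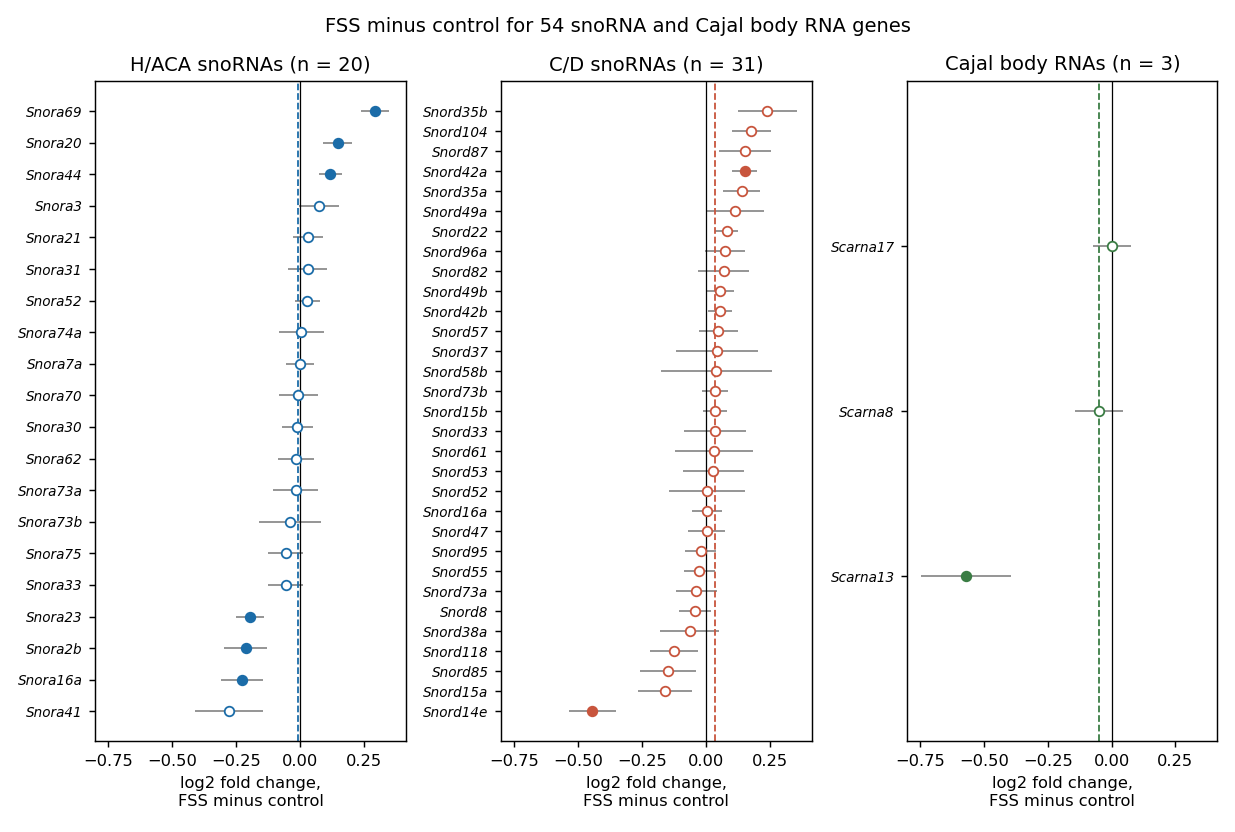
The x axis gives the log2 fold change, as FSS mean less control mean, for all 54 genes by class, with bars of 1 standard error from limma. Filled points passed unadjusted p under 0.05, the dashed line is the class median, and the filled points lie on both sides of 0 in the H/ACA class, from -0.23 for Snora16a to 0.29 for Snora69.

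Among the H/ACA snoRNAs the clearest difference was that of Snora69, which lies within Rpl39, a ribosomal protein gene. Its log2 level was 6.86, 6.84 and 6.99 in control mice 1 to 3 and 7.23, 7.16 and 7.18 in FSS mice 1 to 3. All 3 FSS mice were above all 3 control mice, by a gap wider than the range within either group. The log2 fold change was 0.29 with a standard error of 0.055 and an unadjusted p of 0.00109 in limma, the smallest of the 54 genes, and it passed in all 15 alternative analyses that included it. Its mean level was below the median of the rows with 1 symbol.

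Snora23, an H/ACA RNA within Ipo7, fell. Its level was 10.11, 9.98 and 10.07 in the control mice and 9.87, 9.92 and 9.79 in the FSS mice. The groups did not overlap, although FSS mouse 2 lay close to control mouse 2. The log2 fold change was -0.19 (SE 0.055, unadjusted p = 0.00983, limma), and it passed in all 16 alternatives. Among the 54 genes, only Snora69, Snora23 and Snord14e passed in every alternative run.

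Snora16a and Snora44 both lie within Snhg12, a noncoding host gene, and they passed in opposite directions. Snora16a was at 8.40, 8.33 and 8.09 in the control mice and at 8.06, 8.02 and 8.07 in the FSS mice. Control mouse 3 lay just above the FSS mice, and the other control mice lay well above them. Its log2 fold change was -0.23 (SE 0.081, unadjusted p = 0.0281, limma). Snora44 was at 8.39, 8.43 and 8.34 in the control mice and at 8.47, 8.51 and 8.53 in the FSS mice, with a narrow spread in both groups and no overlap. Its log2 fold change was 0.12 (SE 0.046, unadjusted p = 0.0347, limma). Snora16a no longer passed without control mouse 1 or 2 or any 1 of the FSS mice, with log2 fold changes of -0.16 to -0.32 over the leave-one-out fits. Snora44 no longer passed without control mouse 1 or 3 or FSS mouse 2 or 3, with values of 0.096 to 0.14 over those fits.

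The remaining H/ACA genes that passed lay below the median level of the rows with 1 symbol. Snora20, within the chaperonin gene Tcp1, was at 6.03, 5.86 and 5.97 in the control mice and at 6.05, 6.12 and 6.14 in the FSS mice. Its log2 fold change was 0.15 (SE 0.057, unadjusted p = 0.0355, limma), and FSS mouse 1 exceeded control mouse 1 by little. Snora2b, within Kansl2, which encodes a subunit of a histone acetyltransferase complex, was at 5.94, 5.70 and 5.68 in the control mice and at 5.49, 5.52 and 5.67 in the FSS mice. Its log2 fold change was -0.21 (SE 0.084, unadjusted p = 0.0413, limma), with FSS mouse 3 next to control mouse 3. Without control mouse 1 the value for Snora2b was -0.13 and did not pass, nor did it pass without FSS mouse 1 or 2. Snora20 did not pass without control mouse 2 or 3 or FSS mouse 2 or 3, its log2 fold change ranging from 0.10 to 0.18 over the leave-one-out fits.

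The H/ACA snoRNAs with the highest levels were, beside Snora23, Snora52 and Snora7a, and their groups overlapped. Snora52, within the ribosomal protein gene Rplp2, was at 11.96, 12.05 and 11.90 in the control mice and at 11.98, 12.00 and 12.02 in the FSS mice, with a 95% interval of the log2 fold change from -0.09 to 0.15. Snora7a, within Rpl32, had a 95% interval from -0.13 to 0.13. The largest difference in the class that did not pass was that of Snora41, within the elongation factor gene Eef1b2. It was at 4.79, 4.85 and 5.06 in the control mice and at 4.44, 4.91 and 4.51 in the FSS mice with a log2 fold change of -0.28 (SE 0.132, unadjusted p = 0.0747, limma). FSS mouse 2 stood within the control range and the other FSS mice below it, and without FSS mouse 2 the value was -0.42 and passed. Snora73a and Snora73b, forms of the U17 RNA that acts in cleavage of the ribosomal RNA precursor, had log2 fold changes of -0.016 and -0.038, with unadjusted p of 0.856 and 0.763 in limma.

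**Figure D2:**
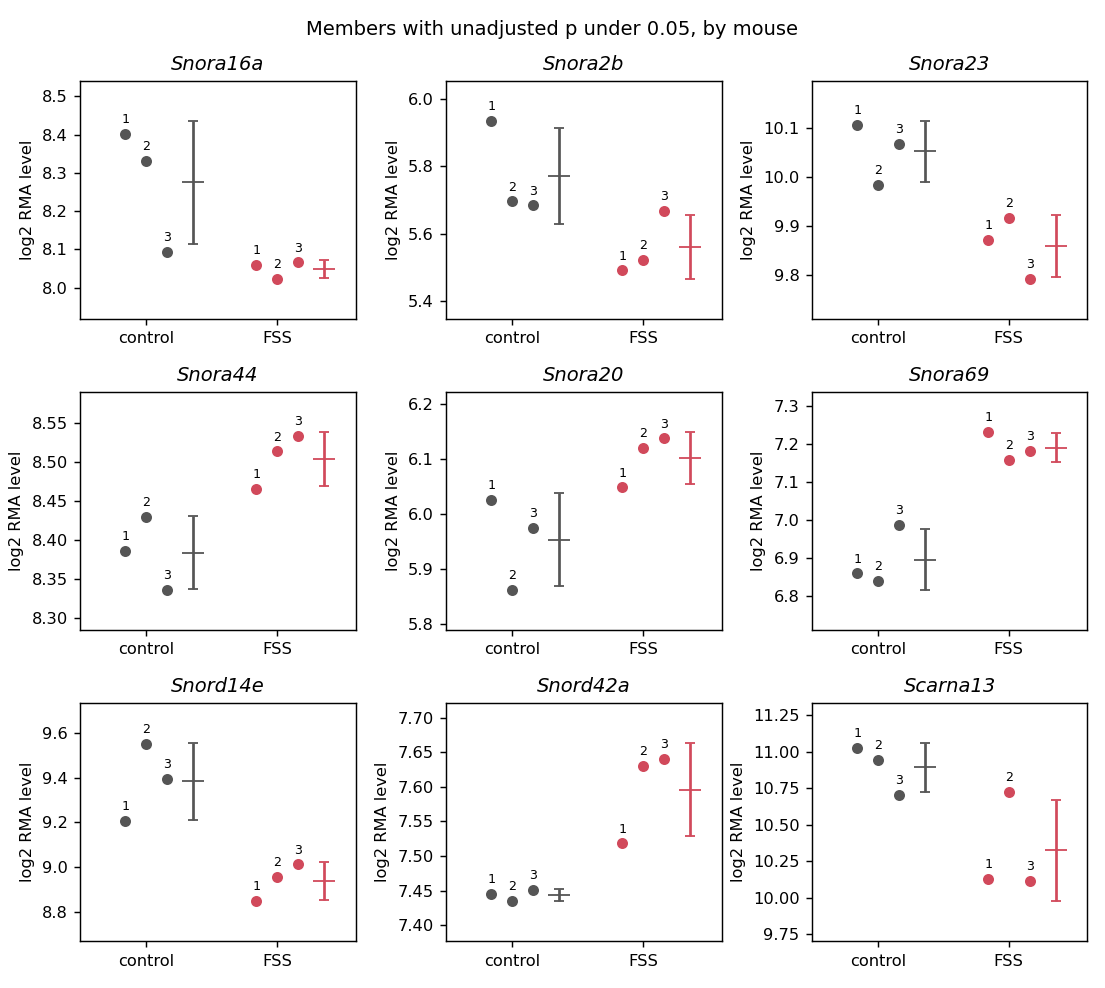
Log2 RMA level (y axis, scaled for each panel) of the 9 genes with unadjusted p under 0.05 in each mouse, with the mean and SD of each group of 3 beside the numbered points. The groups are apart in 8 of the 9 panels, and in the Scarna13 panel FSS mouse 2 lies at 10.73, above control mouse 3 at 10.71.

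Of the C/D snoRNAs, Snord14e had the largest change. It belongs to the U14 family, which acts both in ribosomal RNA methylation and in cleavage of the precursor, and it lies within Hspa8, the gene of a constitutive heat shock chaperone. The level was 9.21, 9.55 and 9.39 in the control mice and 8.85, 8.96 and 9.01 in the FSS mice. Every FSS mouse was below every control mouse. The log2 fold change was -0.44 (SE 0.092, unadjusted p = 0.00209, adjusted p = 0.943, limma), which is an FSS level of 0.735 times the control level. It passed in all 16 alternatives, with log2 fold changes of -0.53 to -0.36 when 1 mouse was left out.

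Snord42a, within the ribosomal protein gene Rpl23a, was the C/D snoRNA that rose. It stood at 7.45, 7.43 and 7.45 in the control mice, with an SD of 0.0081, and at 7.52, 7.63 and 7.64 in the FSS mice. The groups did not overlap, and FSS mouse 1 was nearest to the control mice. The log2 fold change was 0.15 (SE 0.048, unadjusted p = 0.0165, limma), and without FSS mouse 3 it was 0.13 with an unadjusted p of 0.0593. Snord42b, in the same host gene, was at 9.78, 9.80 and 9.84 in the control mice and at 9.87, 9.81 and 9.91 in the FSS mice, with overlap and a log2 fold change of 0.056.

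The other C/D snoRNAs with larger differences overlapped between the groups. Snord35b was at 7.97, 7.63 and 7.57 in the control mice and at 7.83, 8.05 and 8.03 in the FSS mice, with a log2 fold change of 0.24 (SE 0.117, unadjusted p = 0.0790, limma). Without control mouse 1, which lay among the FSS mice, it was 0.37 and passed. Snord104 was at 10.40, 10.42 and 10.23 in the control mice and at 10.41, 10.61 and 10.57 in the FSS mice, with a log2 fold change of 0.18 (SE 0.077, unadjusted p = 0.0544, limma). FSS mouse 1 was level with the control mice, and without it the value was 0.24 and passed. Snord87, Snord15a and Snord85 had log2 fold changes of 0.15, -0.16 and -0.15, with unadjusted p of 0.175, 0.173 and 0.216 in limma. Snord15a passed without control mouse 3, at -0.25, and Snord85 without FSS mouse 1, at -0.27.

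Of the C/D snoRNAs with the highest levels, Snord57, within Nop56, which encodes a core protein of the C/D particle itself, was at 12.86, 12.73 and 12.81 in the control mice and at 12.69, 12.93 and 12.93 in the FSS mice. FSS mouse 1 was the lowest of the 6 and the other FSS mice the highest, and the 95% interval of the log2 fold change ran from -0.13 to 0.23. Snord82, within the nucleolin gene Ncl, had an interval from -0.17 to 0.31. Snord118, or U8, needed for maturation of the large ribosomal subunit's RNA and the only one of the 54 genes with no RefSeq gene around it, had a log2 fold change of -0.12 (SE 0.095, unadjusted p = 0.233, limma). Snord22, or U22, needed for the small subunit's RNA, had one of 0.082 with an unadjusted p of 0.127.

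The imprinted, brain-enriched C/D clusters could not be described in this way. For Snord64, Snord107, Snord109a and Snord112 to Snord116 the annotation gave no row with exactly 1 symbol, and rows with several symbols were not analysed here. There were 41 rows with several symbols that held a snoRNA or Cajal body RNA symbol, and 24 of them were rows of the repeated Snord116 cluster.

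Of the Cajal body RNAs, Scarna13, also known as U93 and a guide for pseudouridylation of spliceosomal RNA, had the largest log2 fold change in size of all 54 genes. It lies within the noncoding gene Snhg10. The level was 11.03, 10.95 and 10.71 in the control mice and 10.13, 10.73 and 10.12 in the FSS mice. FSS mice 1 and 3 were far below the control mice, while FSS mouse 2 lay just above control mouse 3, so the groups overlapped and the exact two-sided permutation p was 0.2. The log2 fold change was -0.57 (SE 0.175, unadjusted p = 0.0145, limma), or 0.674 times the control level. It was -0.77 without FSS mouse 2 and -0.47 without FSS mouse 1, where the unadjusted p was 0.0516, and it also did not pass when the variance of its own row alone was used, at an unadjusted p of 0.0629. Scarna13 is the 1 Cajal body RNA gene that met the fold rule, and it no longer met it without FSS mouse 1 or without FSS mouse 3, where the log2 fold change was -0.47 as well, nor with the arrays' spread as a block, where it was -0.42, nor with the variance of its own row alone.

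The other Cajal body RNAs did not pass. Scarna17, a guide for methylation, was at 10.31, 10.34 and 10.16 in the control mice and at 10.22, 10.39 and 10.20 in the FSS mice, with a log2 fold change of 0.00015 and a 95% interval from -0.18 to 0.18. Scarna8, or U92, was at 5.89, 6.02 and 6.21 in the control mice and at 6.07, 6.04 and 5.87 in the FSS mice, with a log2 fold change of -0.048. For both, the mice of the groups were mixed in order. For the 8 genes whose groups did not overlap, the exact two-sided permutation p was 0.1, the smallest that 3 against 3 mice allow.

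Host genes were found in RefSeq (GRCm38.p6), where 53 of the 54 genes lie within the span of at least 1 other gene, 21 in ribosomal protein genes and 9 in Snhg genes or Gas5. The table gives no strand, so a spanning gene is called a host here by position only. A spanning gene was measured for 30 members, by 26 genes. Of these, 0 passed at an unadjusted p under 0.05 in limma, where 5.20% of all genes did, and 0 passed after adjustment. With 26 genes, such a count is no result about the hosts. The median log2 fold change of the 26 genes was 0.026, with 21 above 0 and 5 below. Over all 19938 genes the median was 0.0039, with 10460 above 0 and 9478 below, and the difference was not tested.

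Hspa8 was at 13.22, 13.23 and 13.28 in the control mice and at 13.25, 13.24 and 13.28 in the FSS mice, with a log2 fold change of 0.018 (SE 0.041, unadjusted p = 0.673, limma). The difference of Snord14e from it changed by -0.46, without overlap of the groups. Ipo7, which encodes an importin that carries ribosomal proteins into the nucleus, was at 10.05, 10.07 and 10.10 in the control mice and at 10.22, 10.12 and 10.21 in the FSS mice. Here the host lay higher in every FSS mouse while Snora23 lay lower, the log2 fold change of Ipo7 being 0.11 (unadjusted p = 0.0575, limma) and that of the difference between Snora23 and Ipo7 -0.30. Rpl23a had a log2 fold change of 0.026 (unadjusted p = 0.572), and the difference of Snord42a from it changed by 0.13, again without overlap. In all, the difference did not overlap between the groups for 3 of the 30 pairs of a member and its spanning gene. Of single genes 10.2% did not overlap, and no such share was taken for differences, so the count is no result about the pairs. In all 3 pairs the member alone already did not overlap. For Snora23 and Ipo7 the separate values fix that the difference could not overlap either. For Snora2b against Kansl2 (-0.17) and Snora20 against Tcp1 (0.095) the groups overlapped, and Rpl39, Snhg12 and Snhg10 were not analysed here.

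**Figure D3:**
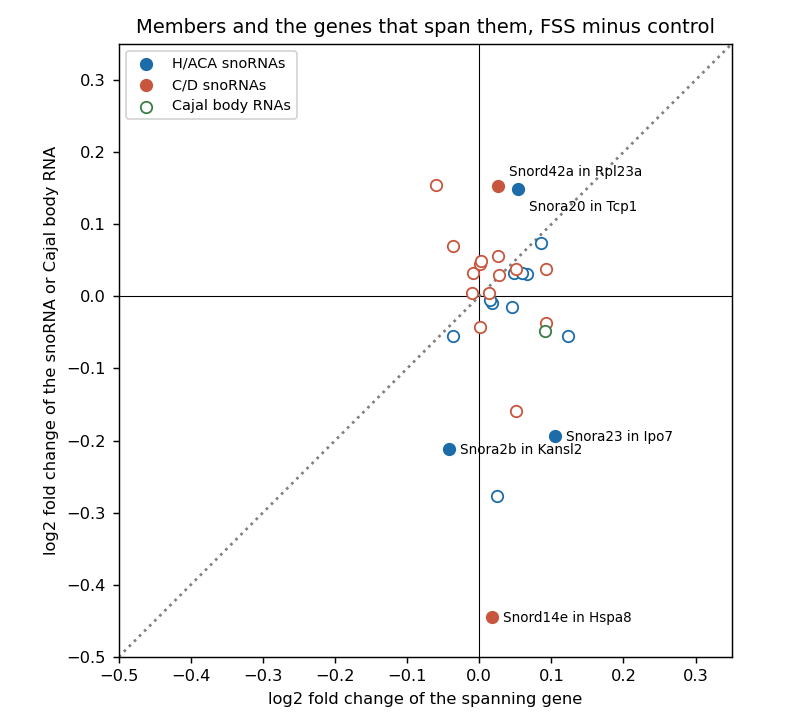
Log2 fold change (FSS minus control) of each snoRNA or Cajal body RNA (y axis) against that of the gene that spans it (x axis), for the 30 pairs with both measured, filled where the small RNA passed unadjusted p under 0.05. The dotted line marks equal change, and Snord14e lies at -0.44 against 0.018 for Hspa8.

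In 10 hosts there were 2 members each, which are not independent of each other because they come from 1 transcript. For Snora16a minus Snora44, in Snhg12, the difference of log2 levels was 0.016, -0.099 and -0.24 in the control mice and -0.41, -0.49 and -0.47 in the FSS mice. The change was -0.35. Both genes had passed in opposite directions without overlap, so their difference could not overlap either and adds nothing to the separate values. In the other 9 pairs the groups overlapped, among them Snord42b minus Snord42a in Rpl23a, which changed by -0.096, Snord15a minus Snord15b in Rps3, which changed by -0.20, and Snora73b minus Snora73a in Snhg3, which changed by -0.022.

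**Figure D4:**
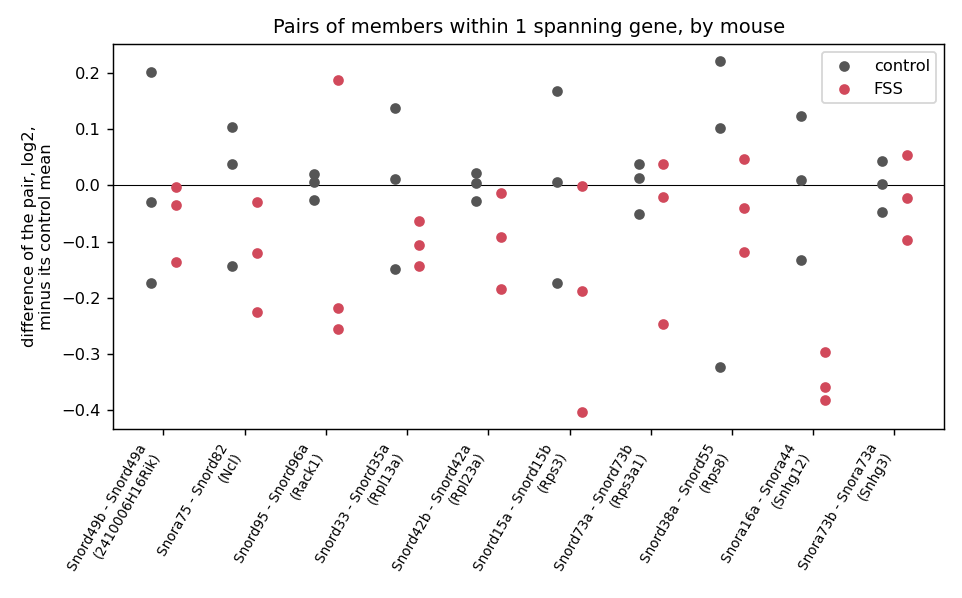
Difference of log2 levels between the 2 members of each of 10 hosts (y axis, minus the control mean of that pair) in each control and FSS mouse. The FSS mice lie apart from the control mice for the Snhg12 pair, as its members' own values fix, and the groups overlap for the other 9.

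The arrays differed in how many of the small RNAs were highest there. FSS mouse 2 had the highest of the 6 values for 20 of the 54 genes and the lowest for 4, and the other arrays had the highest for 2 to 11. The median deviation of the C/D snoRNAs from their own means was 0.036, -0.048 and -0.025 in the control mice and -0.039, 0.088 and -0.0017 in the FSS mice. That of the H/ACA snoRNAs was 0.026, 0.0097 and -0.050 in the control mice and -0.056, 0.058 and 0.0023 in the FSS mice. Thus FSS mice 1 and 2 differed by more than the medians of the groups did, and the C/D median of 0.038, with 22 genes above 0 and 9 below, was -0.022 without FSS mouse 2. The H/ACA median was between -0.035 and 0.027 over the leave-one-out fits and so kept no sign.

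**Figure D5:**
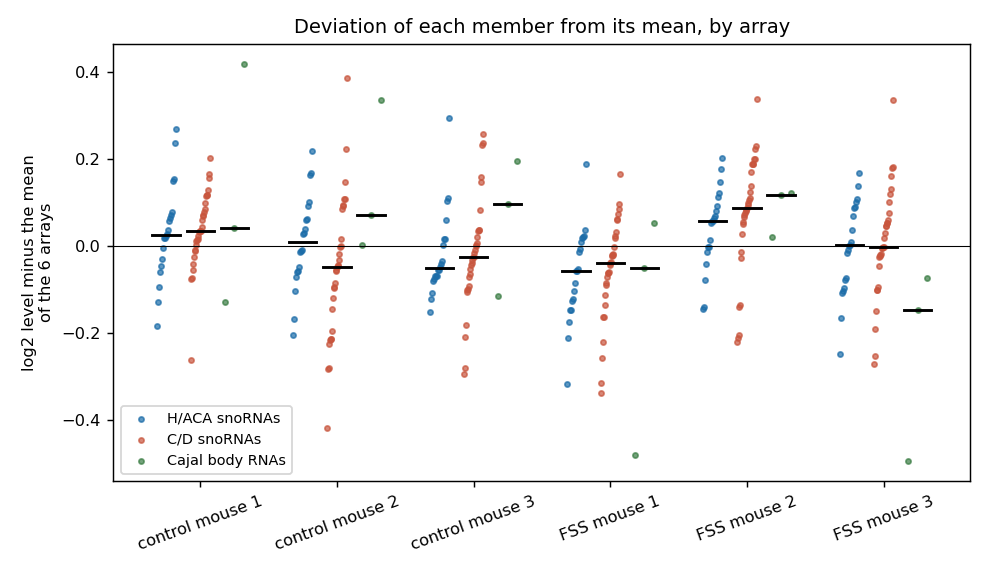
Deviation of each of the 54 genes from its mean over the 6 arrays (y axis, log2) by mouse and class, with black bars at the class medians. FSS mouse 2 has the highest medians, 0.058 for the H/ACA and 0.088 for the C/D snoRNAs, and FSS mouse 1 the lowest H/ACA median, -0.056.

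The arrays also differed in the spread of all values, with an SD of 2.22 to 2.23 for control mice 1 and 2 and FSS mouse 2 and of 2.26 to 2.27 for control mouse 3 and FSS mice 1 and 3. No label calls this a batch. With array spread as a block, 7 of the 54 genes were higher and 3 lower in limma, and Snora16a, Snora2b and Snora20 no longer passed, with log2 fold changes of -0.19, -0.20 and 0.15. Scarna13 passed there with a log2 fold change of -0.42, and 6 of the 9 genes that had passed did so. The narrower arrays hold 1 FSS and 2 control mice and the wider ones 2 FSS and 1 control mouse, and for the 8 genes without overlap any such split keeps the direction, so these values are given for their size only. Snord14e differed by -0.42 within the narrower and -0.46 within the wider arrays, and Snora69 by 0.31 and 0.22. The values lay farther apart for Scarna13, at -0.26 and -0.58, for Snora2b, at -0.29 and -0.10, and for Snora16a, at -0.34 and -0.031.

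The proteins that build and use these RNAs were taken from a list. All 40 listed genes of the snoRNA particles, their assembly, the Cajal body and snoRNA processing were measured, 1 was higher (2.5%, where 2.50% of all genes were), 0 were lower, and their median log2 fold change was 0.014. None of the 4 core proteins of the C/D particle, the 4 of the H/ACA particle, the 15 Cajal body proteins or the 5 processing enzymes passed. The 1 of 12 assembly factors that rose was Ruvbl1, an ATPase of the complex that loads core proteins onto new snoRNAs. It was at 8.23, 8.17 and 8.29 in the control mice and at 8.39, 8.32 and 8.36 in the FSS mice, without overlap, and its log2 fold change was 0.13 (SE 0.049, unadjusted p = 0.0355, limma). It did not pass without control mouse 1 or 2 or FSS mouse 1 or 3, the smallest value being 0.097. Ruvbl2, its partner ATPase, had a log2 fold change of -0.082 with the FSS mice below the control mice without overlap, and did not pass (SE 0.043, limma). Of the 12 measured genes in a list of known snoRNA hosts and of 5 Snhg genes, 0 passed, where 5.20% of all genes did.

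The microRNA genes of the array, also short transcripts that are often cut from longer ones, were described in the same way. Of 300 such genes, 7 rose and 34 fell, with a median log2 fold change of -0.056. Among all genes 2.50% were higher and 2.69% lower. MicroRNAs cut from the same transcript are not independent, and how many of the 34 share a transcript was not examined. Of the 54 snoRNA and Cajal body RNA genes 4 rose and 5 fell, with a median of 0.0059. The difference between the families was not tested, and their levels differed, with 50 of the 300 microRNA genes and 24 of the 54 at or above the median level of all rows.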

How the data were processed

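RNA from 1 hippocampus sample per mouse was hybridised to Affymetrix Mouse Gene 1.0 ST arrays. The deposited values were log2 levels that the authors made by RMA in Affymetrix Expression Console, per the labels, with versions not given in the sources used here. Gene symbols came from the platform annotation, with 1 symbol in 21789 of 28944 rows, several in 1621 and none in 5534, and all 54 members matched RefSeq gene IDs. limma 3.58.1 in R 4.3.3 (lmFit and eBayes, no covariate) was fitted to the 21789 rows of the 3 control and 3 FSS arrays, with Benjamini-Hochberg adjustment over all of them, and counts were taken over 19938 genes by their highest-mean row. A gene passed at an unadjusted p under 0.05, and the study's own rule adds a log2 fold change over 0.5 in size. The script was tested on simulated data. Each array was 1 mouse, so p-values measure the spread between mice, and the number of arrays limits the precision.

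The genes named were those that passed, the 3 highest, 3 largest rises and 3 largest falls of each class, Scarna13, the imprinted C/D clusters, the snoRNA particle genes that passed, and the hosts of members that passed. Snora73a, Snora73b, Snord42b, Snord118, Snord22 and the host pairs lie outside that rule and were chosen after their values were seen. The members and lists were chosen with earlier results of these data known. Alternatives were other variance models, array weights, quantile and median scaling, row filters, blocks and leaving out each mouse. The fourth FSS mouse of the study was not analysed here, and no sequences are printed.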

Additional observations from a re-analysis of the deposited data

How the results depend on the processing

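Of the 9 genes that passed, 3 (Snora69, Snora23 and Snord14e) passed in every alternative that included them, and 37 of 54 genes passed in none. The counts of the classes rested on few genes. The H/ACA genes that rose (3) were 1 without dim rows, where the filter removed Snora69 and Snora20 before any test, and 1 at an unadjusted p under 0.01. Those that fell (3) were 1 with the variance of each row alone, 1 with array spread as a block and 1 at p under 0.01. The C/D genes that rose (1) were 3 with trended and robust variance, 5 with array spread as a block and 0 at p under 0.01. The Cajal body RNA that fell (1) was lost (0) with the variance of each row alone and at p under 0.01, and the Cajal body median was -0.28 without dim rows, where 2 genes were left. The genes called by fold and p (1) were 0 with the variance of each row alone, 0 with array spread as a block and 3 with a fold limit of 0.25. Causes were not tested.

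Leaving out 1 mouse at a time gave 1 to 3 H/ACA genes higher and 1 to 3 lower, 0 to 2 C/D genes higher and 1 to 2 lower, a C/D median of -0.022 to 0.086, 0 to 1 Cajal body RNA lower and 0 to 2 genes by the fold rule. Some genes that had not passed changed sign there, and others, such as Snora41 and Snord87, did not. Among those that did, the values were -0.0021 to 0.069 for Snora52, -0.031 to 0.039 for Snora7a and -0.025 to 0.15 for Snord82. They were -0.061 to 0.037 for Scarna17 and -0.12 to 0.038 for Scarna8. With array weights, quantile normalisation and median centring Snora7a was at -0.017, -0.015 and -0.0086 and Scarna17 at -0.032, -0.015 and -0.011, and Hspa8 was at -0.0058 with quantile normalisation.

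With the replicate number as a block, 1 H/ACA gene rose, and 2 of the 54 genes rose and 4 fell. Of the genes that had passed in the reported fit, 6 did so there. Same-numbered mice deviated together with correlations of -0.048, 0.14 and 0.24 over genes. Control and FSS mice of different numbers had values from -0.26 to 0.13, so those of mice 2 and 3 were the highest. Correlations from groups of 3 mice cannot decide whether the numbers mark a pairing. No pairing was used in the reported fit.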

Other observations

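No comparison above uses the 12 other small structured RNA genes measured by the array. Of them 0 passed at an unadjusted p under 0.05 in limma, where 5.20% of all genes did. The median log2 fold change of the 12 was 0.0016. The values farthest from 0 were those of Rnu6, the spliceosomal U6 RNA, with a log2 fold change of -0.82 (SE 0.419, unadjusted p = 0.0926, limma), and Rnu5g, a U5 RNA, with 0.17. Rnu6 was at 2.55, 2.51 and 3.88 in the control mice and at 2.17, 1.63 and 2.69 in the FSS mice, with overlap. Its mean level of 2.57 lay near the lowest of any gene, 1.78, and its SD in the control mice was 0.78. The value is therefore no result about U6 RNA. Rn7sk, the RNA that holds the elongation factor P-TEFb inactive, was at 14.27, 14.29 and 14.31 in the control mice and at 14.28, 14.30 and 14.28 in the FSS mice. Rmrp, the RNA of a ribonuclease that cuts the ribosomal RNA precursor, had a log2 fold change of 0.035 and Terc, the telomerase RNA, which is itself an H/ACA RNA, one of 0.028. Rnu3a, a U3 RNA of the C/D type that the symbol rule did not include, was at 6.30, 6.00 and 6.34 in the control mice and at 6.02, 6.17 and 6.21 in the FSS mice. Its log2 fold change was -0.079 with an unadjusted p of 0.460 in limma.

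Of the 54 genes, 8 passed in at least 1 alternative and not in the reported fit, among them Snora41, Snord104, Snord35b, Snord15a and Snord85. The direction was the same in every alternative for 27 of the 54 genes.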
